A study of Ovis aries with 4 samples.

Results

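Oxidative phosphorylation is the process by which mitochondria make ATP. Complexes I to IV of the inner membrane pass electrons from NADH and succinate to oxygen and pump protons, and ATP synthase uses the proton gradient. In the ovary this supply feeds the growing oocyte and the steroid-making cells, where the mitochondrion is also the first site of steroid synthesis. The mark studied, N6-methyladenosine or m6A, sits on adenosines within messenger RNA, and proteins that recognise it can alter translation and decay. The genes described here are those that the deposited annotation places under the pathway term Oxidative phosphorylation and that had an m6A peak at either age. There were 36 such genes among 5261 genes with a peak. Of these, 25 carried a gene name and 11 were LOC genes, known by a deposited symbol. That term also covers the vacuolar proton pump, which acidifies lysosomes, and pyrophosphatase, so 30 of the 36 belonged to complexes I to V or their assembly.

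Ovarian tissue of Cele black sheep was taken from young animals of 1 to 2 years and aged animals of 5 to 6 years. At each age an immunoprecipitate with an anti-m6A antibody and an input with no antibody were sequenced, 4 samples in all, and 1 peak list per age was analysed. Peaks mark where immunoprecipitated fragments pile up above the input. Each has a fold (a linear ratio) and raw and adjusted p-values as the authors gave them, and neither list held a peak with a fold below 1.5. The labels name no treatment or genotype, and the labels do not say whether a sample pooled animals. With 1 list per age there is no replicate check, so no test between ages was run, and 95% Wilson intervals of shares cover counting error only. Sequencing depth is unknown, and no values of the inputs were analysed here, so transcript abundance is unknown too. In whole tissue, fewer cells of a type and less RNA per cell cannot be told apart.

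The young list held 4378 peaks and the aged list 3656. The median log10 p was -15.3 for young and -6.22 for aged peaks, and 120 aged peaks (3.28%) had an adjusted p above 0.05, against 10 young ones (0.228%). Of granulosa markers, FSHR and INHBB had peaks in both lists and INHBA in the young list, while AMH, FOXL2 and INHA had none. Of theca and luteal markers, STAR and CYP17A1 had young peaks, and CYP11A1, HSD3B1 and LHCGR none. Stromal markers were 3 young-only, 1 shared and 1 aged-only, macrophage markers 3 young-only and 1 shared, and endothelial markers 1 shared and 3 aged-only. Oocyte markers had 1 young-only and 1 aged-only gene of 6. No peak was found for any adipocyte marker (4) or red blood cell marker named in the gene table (3). CKM was the only muscle marker with a peak (fold 2.52, aged list). A gene without a peak may still be expressed, so these counts do not measure cell types.

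Most oxidative phosphorylation genes had a peak in the young list and none in the aged list. Of the 36 genes, 27 (75.0%, interval 58.9 to 86.2) were young-only, against 41.3% of all genes with a peak. Peaks at both ages were found for 5 (13.9%, 6.08 to 28.7), against 31.8% of all genes, and 4 were aged-only (11.1%, 4.41 to 25.3), against 26.9%. Counted as peaks, the genes had 32 young and 10 aged ones. The young list was longer and its peaks more significant. With the young list reduced to the length of the aged list by p-value, 19 of 28 genes (67.9%) were young-only, against 37.4% of all genes at that setting. With only peaks of a fold of at least 2.00, 10 genes were left, 7 young-only, 1 in both lists and 2 aged-only. There the young-only share was 70.0%, against 54.7% of all genes, and that difference was not tested. Of all genes at that setting, 19.1% were shared and 26.1% aged-only. The term was assigned by annotation and not by peak values, but it was chosen for description with earlier results of these lists known.

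**Figure D1:**
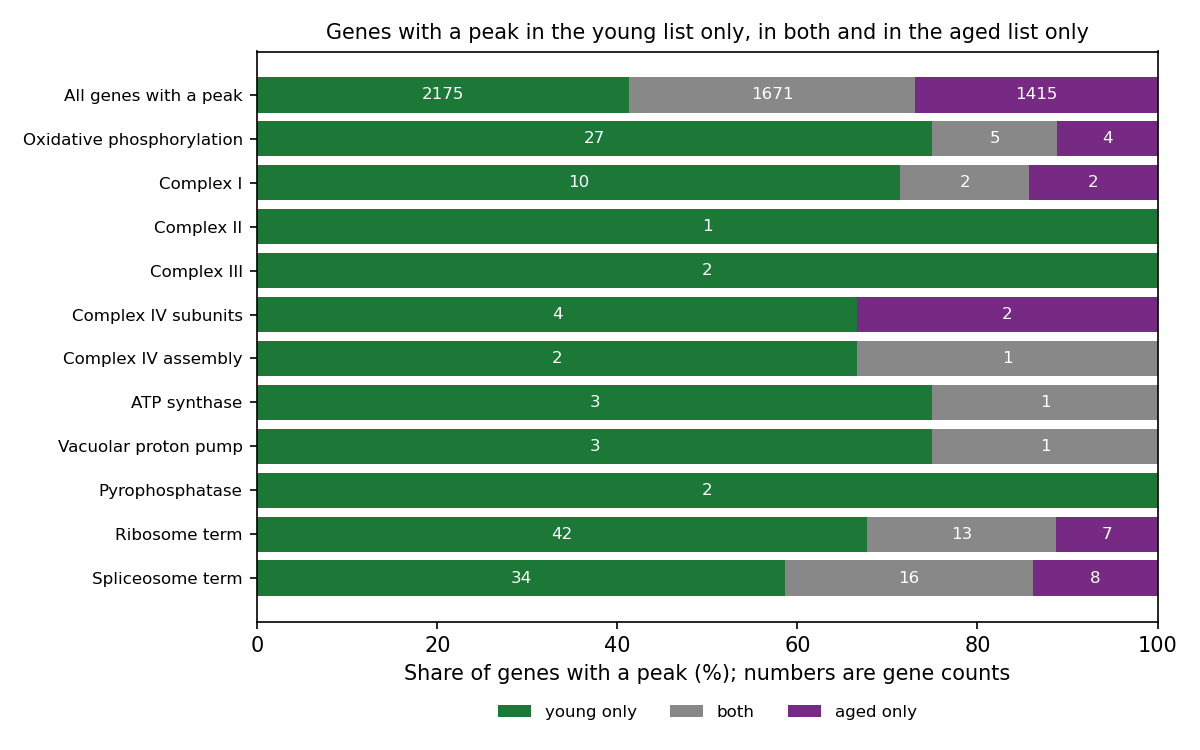
Shares of genes with a peak in the young list only (green), in both lists (grey) and in the aged list only (purple), with gene counts in the bars, for all genes, the pathway, its complexes and the Ribosome and Spliceosome terms. The pathway had 27, 5 and 4 genes in these classes.

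The Ribosome and Spliceosome terms were counted in the same way. Whether the Ribosome term holds mitochondrial ribosomal protein genes was not examined. Of 62 genes under the Ribosome term, 42 (67.7%) were young-only, 13 shared and 7 aged-only. Under the Spliceosome term the numbers were 34 (58.6%), 16 and 8 of 58 genes. These shares stand beside 75.0% for oxidative phosphorylation as descriptions, and the differences between the 3 groups were not tested.

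Complex I, the NADH dehydrogenase that feeds electrons into the chain, gave the largest group, with 14 of its 37 listed subunit genes. Of these, 10 were young-only (71.4%, interval 45.4 to 88.3, against 41.3% of all genes with a peak), 2 shared and 2 aged-only. The genes for core subunits, as opposed to accessory ones, were NDUFV2 (fold 2.00), NDUFS3 (1.68) and NDUFS8 (1.51) in the young list and NDUFS1 (1.84) in the aged list. So 3 of these 4 core genes had a young peak only, and NDUFS1, whose product is the largest iron-sulfur subunit, had an aged peak only. The accessory subunit genes NDUFS6 (2.64) and NDUFS4 (1.72) were young-only as well. Of the genes for the membrane arm, NDUFB1 (1.53), NDUFB4 (1.61), NDUFB7 (1.57), NDUFB9 (1.5) and NDUFC1 (1.67) were young-only and NDUFB5 (1.68) aged-only. The young median fold of the group was 1.59 over 12 peaks, where all young peaks had a median of 2.05. Of these 12, NDUFS6 and NDUFV2 alone reached 2.00. The NDUFB1 peak had 6 bases outside the span of the gene in the gene table.

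NDUFS6 had the strongest young peak of complex I by fold. It was labelled exon on chromosome 16 (70913321 to 70916983), with a length of 150 bases once introns are left out, and a p-value of 2.51e-13. NDUFA5, an accessory subunit gene of the matrix arm, had the strongest aged one, with a fold of 2.82, where its young fold was 1.56. These were separate sites. On chromosome 4, the young peak (89467141 to 89467289, p 2e-12) was labelled stop codon. The aged peak was labelled 3' UTR, lay 593 bases away at 89467883 to 89479484 and covered 347 bases of transcript (p 4.68e-05). The folds of NDUFA5 therefore do not compare the same stretch of RNA.

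NDUFB10, a membrane arm subunit gene, had a peak with the same boundaries at both ages, labelled stop codon on chromosome 24 (2041775 to 2042565, 349 bases of transcript). Its folds were 1.55 and 1.56. The young p-value was 6.31e-70, which ranked 11 of 4378 young peaks, and the aged p-value was 0.049 with an adjusted p of 0.144. Equal folds at 1 site thus came with p-values at opposite ends of their lists. By fold the young peak lay at percentile 5.4 of its list. Of the 100 most significant young peaks, 14 had a fold below 1.6, so a weak fold with a very low p was not limited to NDUFB10.

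**Figure D2:**
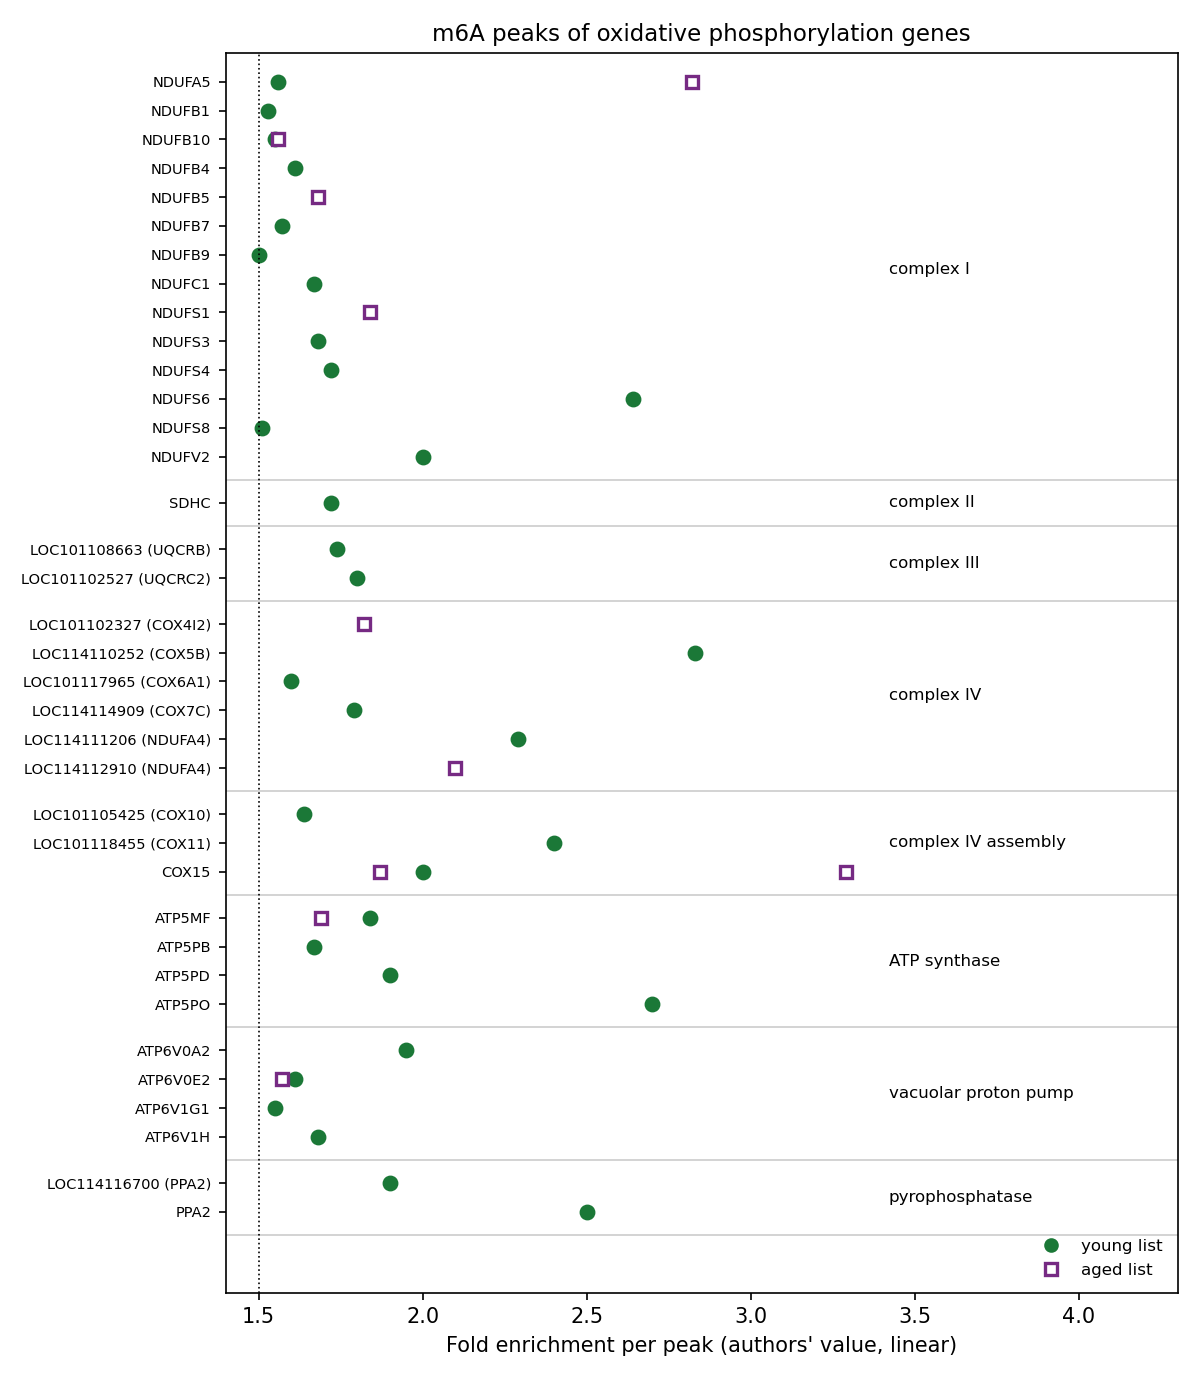
Fold enrichment of every peak of the 36 genes, in the young list (filled green circles) and the aged list (open purple squares), by complex, with the lowest deposited fold of 1.5 as a dotted line. Most complex I peaks lie close to that line, and NDUFA5 and COX15 have the highest aged folds, 2.82 and 3.29.

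Complexes II and III had young peaks only, in 1 and 2 genes. The intervals of these young-only shares, 20.7 to 100% and 34.2 to 100%, include the 41.3% of all genes with a peak. SDHC, which encodes a membrane anchor of succinate dehydrogenase, was the single gene of 4 for complex II. Its young peak had a fold of 1.72 and lay on chromosome 1 (112763427 to 112763676, 3' UTR label, 250 bases, p 2.51e-29). For complex III, which passes electrons from ubiquinol to cytochrome c, the young list held LOC101102527, with the symbol UQCRC2 (1.80), and LOC101108663, with the symbol UQCRB (1.74). Neither had an aged peak.

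All complex IV subunit genes with a peak were LOC genes. Complex IV, or cytochrome c oxidase, hands the electrons to oxygen. Its young peaks were those of LOC114110252 (symbol COX5B, fold 2.83), LOC114111206 (NDUFA4, 2.29), LOC114114909 (COX7C, 1.79) and LOC101117965 (COX6A1, 1.6). The aged list held LOC114112910 (NDUFA4, 2.10) and LOC101102327 (COX4I2, an isoform of subunit 4, 1.82). The symbol NDUFA4 thus stood for different genes at the ages. LOC114111206 had its young peak on chromosome X (98644503 to 98644687, stop codon label), and LOC114112910 its aged peak on chromosome 2 (243404838 to 243404988, 3' UTR label). No peak was found in the gene named NDUFA4.

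LOC genes made up 30.6% of the pathway's genes and 8.15% of all genes with a peak. For 8 of the 11, the gene table held no gene named by the deposited symbol. Whether another LOC gene stands for the same symbol was not examined. By name, the table held 2 of 15 listed complex IV subunit genes and 1 of 9 of complex III, but 37 of 37 of complex I. For the other 3, the table also held a named gene. These were the NDUFA4 pair, 422 and 454 bases long beside 7269 bases for NDUFA4, and LOC114116700 with the symbol PPA2, 1146 bases beside 96723 for PPA2. LOC114110252 (COX5B) was 487 bases long, and its peak overlapped the span of EPHB1, an ephrin receptor gene. These 4 were the only pathway genes shorter than 1500 bases, where 1.45% of all genes with a peak were as short. Whether they are copies of the named genes was not examined, and reads can be assigned to any of several similar genes, so the peaks of these 4 are uncertain as to gene. Leaving out all LOC genes, 18 of 25 (72.0%) were young-only, 5 shared and 2 aged-only. All genes at that setting had 41.1%, 32% and 27%.

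Assembly of complex IV was represented by genes for its heme and copper centres. LOC101118455 (symbol COX11, which delivers copper; fold 2.40, p 0.0214) and LOC101105425 (COX10, which makes heme O; fold 1.64, p 1.58e-37) were young-only. COX15, which converts heme O to heme A, had 1 young and 2 aged peaks, all labelled 3' UTR on chromosome 22. The young peak (20456301 to 20456450, 150 bases, fold 2.00, p 7.08e-07) lay outside the span of COX15 in the gene table. It overlapped the span of the neighbouring gene ENTPD7 and a young plus-strand peak deposited for ENTPD7 (20456266 to 20456465, fold 1.67). An aged peak (20462331 to 20462480, fold 1.87, p 3.89e-06) lay within the span of COX15 and overlapped that of ENTPD7. The span of LOC132658453 also overlapped this aged peak and the young one. The other aged peak (20464623 to 20464772, fold 3.29, p 0.000115) lay within COX15 and had the highest fold of all pathway peaks. The gene behind the first 2 peaks cannot be told apart here. Spans of other genes also overlapped peaks of ATP6V0E2 (LRRC61), LOC101102527 (PDZD9), LOC114114909 (LOC114115081) and NDUFS4 (LOC121816807), whose assignment is uncertain to that extent. Without COX15 the counts were 27 young-only, 4 shared and 4 aged-only of 35 genes, where all genes had 41.3%, 31.7% and 26.9%.

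ATP synthase had peaks in 4 of its 18 listed genes, 3 young-only and 1 shared. The young-only genes encode parts of the peripheral stalk, which holds the catalytic head still. ATP5PO had a fold of 2.70 (chromosome 1, 122297400 to 122300869, stop codon label, 526 bases of transcript, p 3.16e-24), ATP5PD 1.90 and ATP5PB 1.67 (p 0.00407), and none of the 3 had an aged peak. The ATP5PD peak lay on chromosome 11 (55736677 to 55737061, stop codon label, 246 bases, p 1e-53), and its p-value ranked 58 of 4378. ATP5MF, a membrane subunit gene, was shared, with a young fold of 1.84 and an aged fold of 1.69. Its young peak (chromosome 24, 37401632 to 37402533, 248 bases, p 2e-17) lay wholly within the aged one (37401001 to 37402533, 297 bases, p 2.51e-19), and both were labelled stop codon. No gene of the catalytic head, such as ATP5F1A or ATP5F1B, had a peak in either list.

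The vacuolar proton pump had the same counts as ATP synthase, with 3 young-only and 1 shared gene of 23 listed. For either group the interval of the young-only share was 30.1 to 95.4%, which includes the 41.3% of all genes with a peak. The young-only genes were ATP6V0A2 (1.95), ATP6V1H (1.68) and ATP6V1G1 (1.55). The ATP6V0A2 peak lay on chromosome 17 (51992341 to 51992540, p 3.16e-11) and that of ATP6V1H on chromosome 9 (34843365 to 34843514, p 2.51e-25), both with a stop codon label. ATP6V0E2, for a small membrane subunit, had a peak with identical boundaries at both ages (chromosome 4, 113879828 to 113880123, 296 bases, stop codon label), with folds of 1.61 and 1.57. The young p-value was 2.51e-17, and the aged one was 5.01e-30 and ranked 21 of 3656. The aged p was thus the lower, the reverse of NDUFB10. The mitochondrial pyrophosphatase gene PPA2 (2.50, chromosome 6, 20187455 to 20188967, stop codon label, 247 bases, p 1.26e-28) and LOC114116700 (1.90) were young-only.

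Peaks at the same site were few. Of the 32 young peaks, 3 (9.38%, interval 3.24 to 24.2) shared at least 1 base with an aged peak of that strand, against 34.3% of all young peaks. Of the 10 aged peaks these were 3 as well (30.0%), against 41.0% of all aged peaks. They were those of ATP5MF, ATP6V0E2 and NDUFB10. At these 3 sites the aged fold was 0.918, 0.975 and 1.01 times the young fold. The other 2 shared genes, NDUFA5 and COX15, had no overlapping peaks. Since 27 of the 32 young peaks belonged to young-only genes, the low overlap largely restates the class counts.

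Young pathway peaks had a lower median fold than all young peaks, with the same median p. The median fold was 1.72 (interval of the median 1.61 to 1.90) against 2.05 for all young peaks, and 7 of 32 (21.9%) had a fold below 1.6, against 9.11%. Young peaks under the Ribosome term had a median fold of 1.88 with 21.1% below 1.6, and those under the Spliceosome term 2.16 and 5.00%. The 7 pathway genes below 1.6 were NDUFB9, NDUFS8, NDUFB1, NDUFB10, ATP6V1G1, NDUFA5 and NDUFB7. A fold of at least 2.00 was reached by 8 of 32 (25.0%), against 58.3%. The median log10 p was -15.3, the same as over all young peaks. It ranged from -69.2 for NDUFB10 to -1.57 for NDUFB4. With a p above 0.001 were 4 of the 32, NDUFB4, ATP5PB and the LOC genes of COX11 and COX5B, against 0.731% of all young peaks. In the aged list 1 peak of 10, that of NDUFB10, had a p above 0.001 and an adjusted p above 0.05, against 10.8% and 3.28% of all aged peaks. The 10 peaks had a median fold of 1.83 (1.57 to 2.82) against 1.88, with 2 of 10 below 1.6 (15.7% of all aged peaks) and 3 of 10 at 2.00 or above (42.7%), and a median log10 p of -5.94 against -6.22. Because the lists end at a fold of 1.5, a gene whose fold was slightly lower at 1 age would be counted in 1 list only.

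**Figure D3:**
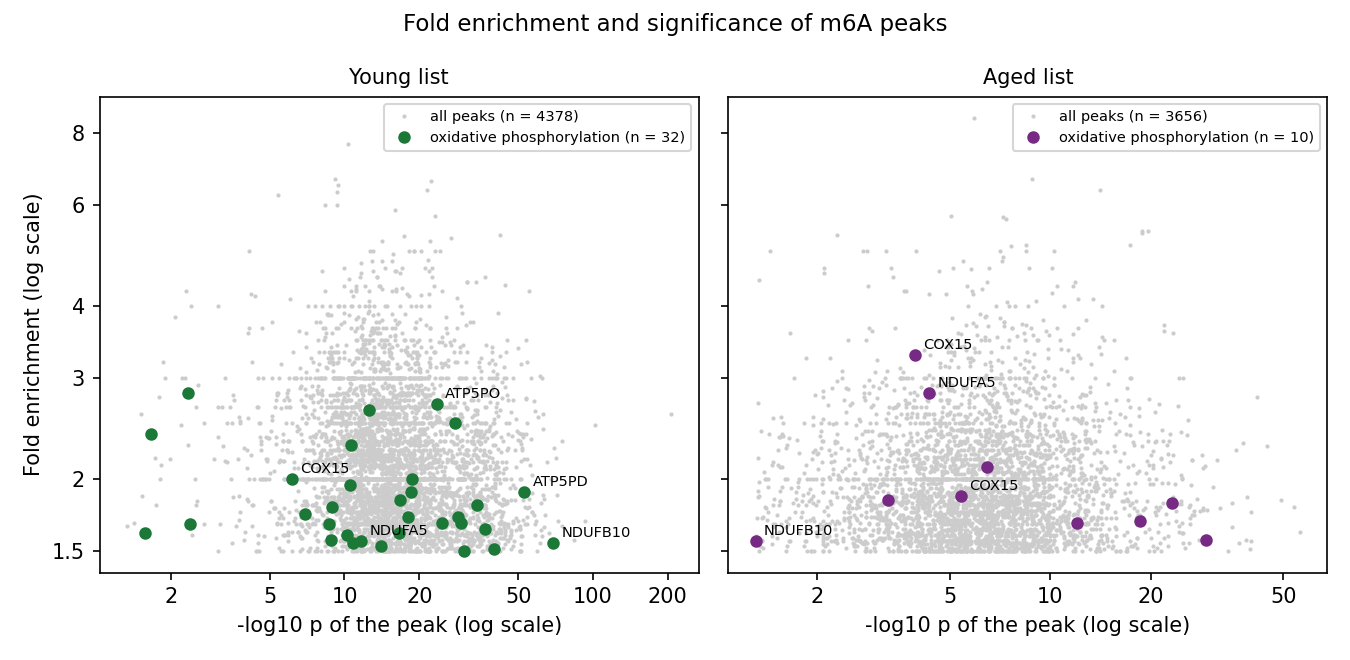
Fold enrichment against -log10 p, both on log scales, for all peaks (grey) and the pathway's peaks (coloured), with the young list on the left and the aged list on the right. NDUFB10 has about the same fold at both ages, 1.55 and 1.56, at opposite ends of the p axis.

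Peaks of these genes often spanned splice junctions. Of young peaks, 18 of 32 (56.2%, interval 39.3 to 71.8) crossed an intron, against 16.9% of all young peaks. In the aged list 5 of 10 did (50%, 23.7 to 76.3), against 22.5%. The longest was that of NDUFS4, with 237 bases of transcript over a span of 20008 bases, followed by the aged NDUFA5 and the young NDUFV2 peaks. Under the Ribosome and Spliceosome terms 35.1% and 41.7% of young peaks crossed an intron. The median gene length was 6929 bases for the 36 genes and 28132 bases for all genes with a peak. The part of gene length in these shares was not tested.

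The stop codon label was frequent and lay mostly at the gene end. It was given to 22 of 32 young peaks (68.8%, interval 51.4 to 82.0), against 41.3% of all young peaks, and the 3' UTR label to 7 (21.9%), against 47.3%. Of young peaks under the Ribosome term 63.2% had the stop codon label, and 30.0% under the Spliceosome term. Exon labels were carried by 3 (9.38%), those of NDUFS6, NDUFB9 and LOC114110252 (COX5B), against 9.30%. In the young list 17 of 32 peaks (53.1%), all labelled stop codon, ended exactly where the gene table ends the gene, against 29.2% of all young peaks, 36.8% under the Ribosome term and 18.3% under the Spliceosome term. These included ATP5PO, ATP5PD, NDUFS3 and PPA2. Of the 10 aged peaks, 3 (30.0%) carried the stop codon label, against 15.3%, and these 3, of ATP5MF, ATP6V0E2 and NDUFB10, were plus-strand peaks that ended at the last base (30.0%, against 9.05%). The 3' UTR label went to 6 aged peaks (60.0%, against 66.4%), among them all 5 on the minus strand, whereas 7 of 11 young minus-strand peaks were labelled stop codon. Over all genes, minus-strand peaks had the stop codon label in 39.0% of young and 2.58% of aged cases. The label thus cannot be taken for the place of the mark.

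**Figure D4:**
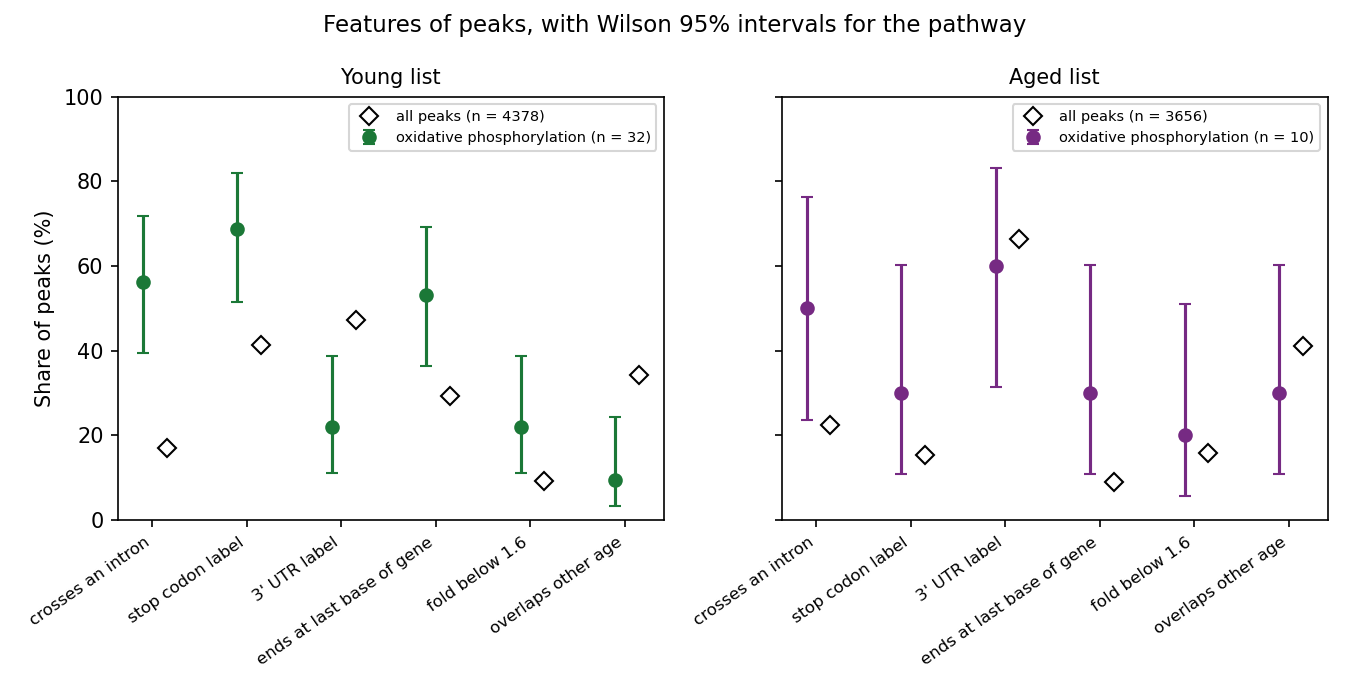
Share of peaks with each feature for the pathway (filled circles with Wilson 95% intervals) and for all peaks of the same list (open diamonds), young on the left and aged on the right. Young pathway peaks crossed introns in 56.2% of cases against 16.9% of all young peaks, and overlapped an aged peak in 9.38% against 34.3%.

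The genes shared further annotation that follows from the complexes. Of the 36, 30 were also annotated to Thermogenesis, a term held by 3.51% of the 2248 genes with a pathway term, and the 6 without it were the proton pump and pyrophosphatase genes. The term Parkinson disease was held by 26, against 3.74%. No peak of either list lay on the mitochondrial chromosome, which encodes the remaining subunits of complexes I, III, IV and V.

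Genes around the respiratory chain were counted by name, with LOC genes apart. Of 53 assembly factors, 28 of them named in the gene table, 17 had a peak, with 5 young-only, 6 shared and 6 aged-only. SDHAF3 (3.08) and TMEM186 (2.33) were young-only, and SDHAF1 (2.71) and LYRM7 (2.22), an assembly factor of complex III, were aged-only. CEP89 was shared (young 1.51, aged 2.57). LOC genes with the symbol of an assembly factor added 5 young-only, 3 shared and 1 aged-only. Over the whole series the shares were 41.3% young-only, 31.8% shared and 26.9% aged-only. The assembly factors, LOC genes included, lay close to them. These counts include COX15 and the LOC genes of COX10 and COX11, which are also pathway genes. COX15 counts as shared here although its young peak is uncertain as to gene.

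Mitochondrial ribosomal protein genes, which serve translation of the mitochondrial subunits, had 39 genes with a peak of 75 named in the table. Of these, 26 were young-only, 9 shared and 4 aged-only, beside 41.3%, 31.8% and 26.9% of all genes with a peak. MRPL49 (3.62) and MRPS18C (3.20) led the young-only genes by fold, and MRPS12 (2.00) and MRPL19 (1.83) the aged-only ones. MRPS21 (4.25 and 1.76) and MRPL35 (3.28 and 1.83) were shared.

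Regulators of mitochondrial biogenesis and of mitochondrial DNA expression had 13 of 24 genes with a peak, 4 young-only, 6 shared and 3 aged-only (all genes 41.3%, 31.8% and 26.9%). ESRRA (3.50), a nuclear receptor gene that activates respiratory genes, and MTERF1 (2.67) were young-only. TFAM (2.23), whose product packages and transcribes mitochondrial DNA, and GABPB1 (2.29) were aged-only. The helicase gene TWNK (3.00 and 1.85) and MTERF2 (1.93 and 3.66) were shared. Of genes for fusion, fission and turnover of mitochondria 9 had a peak, 2 young-only, 3 shared and 4 aged-only, beside those shares. Aged-only genes were the largest class in this list, but the genes were few and the difference was not tested. The fusion gene MFN1 (3.17) and PHB2 (1.90) were young-only, and OPA1 (1.88), for inner membrane fusion, and BNIP3L (1.87) were aged-only. MTFP1 (2.15 and 1.55) and PINK1 (1.6 and 2.05), a kinase gene of mitophagy, were shared.

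In the citric acid cycle and pyruvate dehydrogenase list, 6 of 11 genes with a peak were young-only, 2 shared and 3 aged-only, where all genes had 41.3%, 31.8% and 26.9%. CS (citrate synthase) and DLST both had a young fold of 2.50, PDHX (2.27) and PC (1.94) were aged-only, and IDH3A (2.57 and 2.77) and MPC2 (2.46 and 1.61) were shared. Glycolysis had 7 of 26 genes with a peak, 3 young-only, 2 shared and 2 aged-only, which is close to those shares. LDHA (1.94), for a lactate dehydrogenase subunit, was young-only, the lactate exporter gene SLC16A3 (2.89) and HK2 (1.67) were aged-only, and SLC2A1 (3.10 and 1.80), for a glucose transporter, and ENO3 (1.57 and 1.99) were shared. Electron carriers, nucleotide exchange and uncoupling had 6 young-only, 2 shared and no aged-only gene of 27 (8 genes with a peak, beside the same shares). MCU (3.47), the mitochondrial calcium channel gene, and COQ8A (2.55) were young-only, and PDSS1 (3.88 and 2.69) and COQ3 (3.00 and 1.55) of ubiquinone synthesis were shared.

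**Figure D5:**
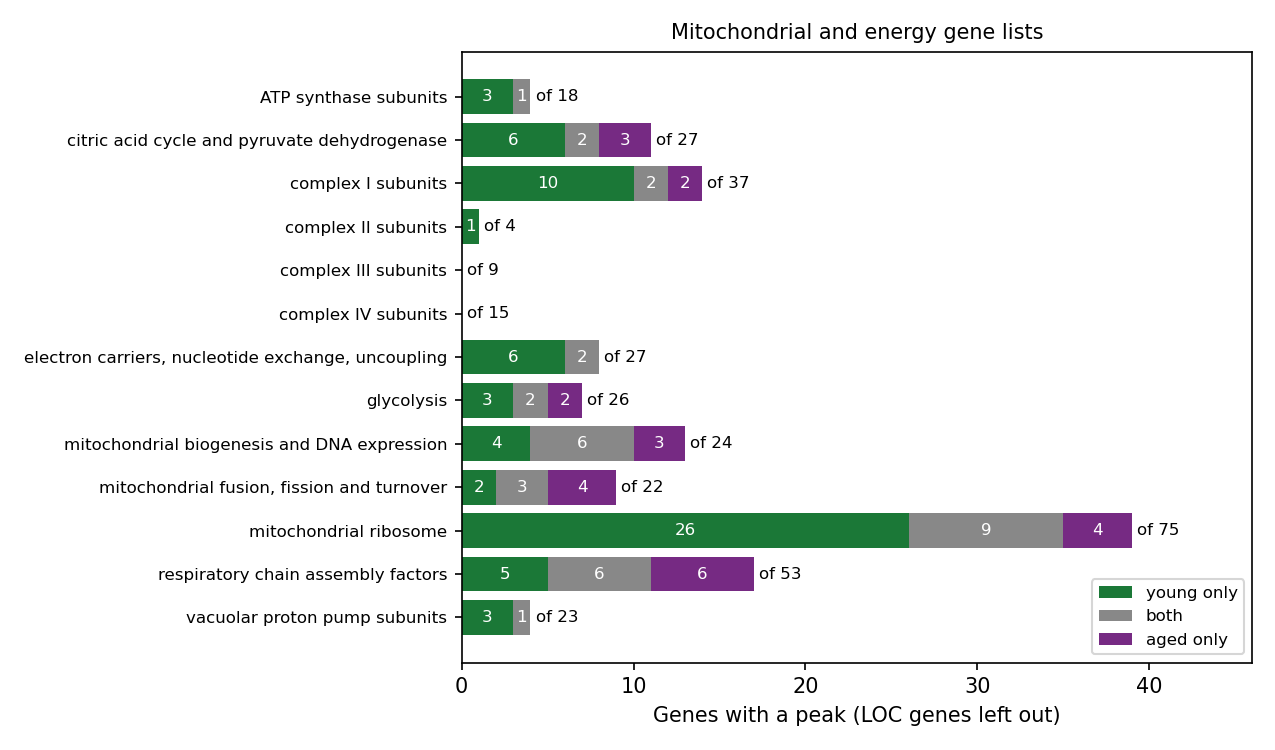
Number of genes of each energy and mitochondrial list with a peak in the young list only (green), in both (grey) and in the aged list only (purple), LOC genes left out, with the size of the list at the end of each bar. Complex I had 10, 2 and 2 genes, and assembly factors 5, 6 and 6.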

How the data were processed

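Libraries were made from total RNA with a stranded kit, per the labels' protocols, from immunoprecipitated and input RNA of either age. Per the submitters' processing notes, ChIPseeker and DESeq2 were used, with no stated role. What aligner, caller or build they used is not given in the sources used here. Per the file headers, each deposited peak has a p-value, raw and adjusted, and an enrichment over input as a linear fold. The authors' log10 p columns were handled as a score. Lengths and coordinates are the authors' own, with starts shifted to count from 1.

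Genes belonged to the pathway where the deposited pathway terms, split at the separator, held Oxidative phosphorylation exactly, and were grouped into complexes by deposited symbol. The genes and lists were chosen with earlier results of these data known. All named members are reported with their folds, full positions for the 2 highest folds per complex and all shared genes, and for other lists the 2 highest folds per class, of which 1 gene is not reported here. A gene is young-only, aged-only or shared by which lists hold a peak of it. A peak crosses an intron where its span exceeds its length. A gene table of assembly ARS-UI_Ramb_v3.0, matched by gene identifier for 100% of the genes, gave chromosome numbers, gene ends, lengths and neighbours. Its coordinates are not printed. Intervals are Wilson 95%, and exact binomial for medians. No sequence is printed, and no replicate or paired analysis was run with 1 list per age. Overlap and class counts were tested on simulated peaks. Tables were handled with pandas 2.3.3 and numpy 2.4.6 in Python 3.11.15, intervals with scipy 1.17.1 and plots with matplotlib 3.10.9.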

Additional observations from a re-analysis of the deposited data

How the results depend on the processing

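With a fold of at least 2.00 the young-only, aged-only and shared counts were 7, 2 and 1. There 0 of 8 young peaks overlapped an aged peak, against 20.2% of all young peaks at that setting (3 of 32 pathway peaks without the limit). The 0 of 8 allows up to 37.5%, taken as 3 divided by the number of peaks and not as a Wilson limit. That setting keeps fewer peaks by construction. Without LOC genes 2 genes were aged-only (8.0%, against 27% of all genes). On the plus strand 2 were aged-only (8.7%, against 25%) and 3 shared (13.0%, against 32.2%). Requiring overlapping peaks, 3 were shared (8.33%, against 26.7%). Each of these settings has fewer genes or a narrower definition by construction. The other 35 values stayed within 1.5 times the count, or within the interval, of the value reported. They included those at equal list lengths, for complexes I to V only and with adjusted p limited to 0.01. Young-only genes stayed the most numerous class in all settings, as they also did over all genes with a peak. The young-only share was 67.9% to 78.3% of pathway genes and 37.4% to 54.7% of all genes. These shares were closest with a fold of at least 2.00, at 70.0% of 10 pathway genes against 54.7%. No interval was computed at that setting. Intron crossing among young peaks was 50% to 65.2%, and leaving out COX15 was also tried, both chosen after seeing the data. Overlap of exon blocks was not run, since the files used here give no blocks. No paired analysis was possible because each age has 1 list and the ages carry different replicate numbers, and leaving out a replicate was not possible for the same reason. Unknown depth and the fold limit of 1.5 bound what absence from a list can mean.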
